A study of Danio rerio with 6 samples.

Results

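The genes described here are 10 that mark the cells lining blood vessels: the receptors for vascular endothelial growth factor (VEGF) *kdrl*, *kdr*, *flt1* and *flt4*, the receptors *tek* and *tie1* of the angiopoietin system, the gene of VE-cadherin *cdh5*, and the ETS transcription factors *fli1a*, *etv2* and *erg*. They were taken by name, and all 10 were found among the 36155 genes of the count files. RNA-seq was performed on dissected tails of zebrafish at 36 hpf (hours postfertilization), with 3 libraries from *prpf31*-/- embryos and 3 from *prpf31*+/+ siblings, all of the AB* strain. Each library pooled tails that had been sorted by genotyping the heads, and both groups were offspring of heterozygous parents. The mutation is a frameshift made by CRISPR/Cas9 that affects every cell, so vessels were not targeted separately, and both groups could inherit maternal *prpf31* product. Endothelial cells are a minor part of a whole tail. A lower value of an endothelial gene can come from fewer endothelial cells or from less RNA per cell, and these cannot be told apart here. Where other cells of the tail also express a gene, the values do not show in which cells it changed. Prpf31 is a splicing factor, and the paper reports altered splicing in *prpf31*-/- tails. Counts per gene do not show which transcript forms were made. A gene with an unchanged count can therefore still differ in splicing, which was not tested here.

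Endothelial cells form vessels in response to VEGF ligands, which bind receptor tyrosine kinases on their surface. The angiopoietin system acts alongside, with Angpt1 as an activating ligand of the receptor Tek (also called Tie2), and is known in mammals for stabilizing vessels. VE-cadherin holds neighboring endothelial cells together. The ETS factors switch on much of the endothelial program, and Etv2 stands at its start in the mesoderm that gives rise to both vessels and blood. In the zebrafish tail, the ventral wall of the dorsal aorta releases hematopoietic stem and progenitor cells, which then lodge in the caudal vein plexus. The comparison of *prpf31*-/- with sibling tails asks whether these vessel genes changed at the stage when the progenitors begin to expand.

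Total counts per library ran from 21809870 to 23789933, and 21876 genes passed the filter on low counts and were tested. The targeted gene *prpf31* was at 23.4, 25.2 and 23.0 CPM (counts scaled to a common normalized library total) in the 3 *prpf31*-/- libraries, against 36.8, 38.2 and 38.4 CPM in the siblings (log2 fold change −0.66, SE 0.0842, adjusted p = 0.00104 with edgeR). The summed levels of some marker lists of other cells differed between the groups. Of the listed genes of each cell type, 5 of 6 erythroid and 6 of 6 myeloid genes were in the files. The summed erythroid level was 1073 to 1322 CPM in *prpf31*-/- tails and 1640 to 1989 CPM in sibling tails, and the summed myeloid level was 67.9 to 78.2 CPM against 88.3 to 102 CPM. The 6 muscle genes summed to 13357 to 13952 CPM in *prpf31*-/- tails and 14377 to 14923 CPM in sibling tails, but none of the 6 was called, 3 were positive and 3 negative, and their median log2 fold change was −0.0052. The sums of the 6 epidermal and 6 neural genes overlapped between the groups. The mitochondrial share of counts was 4.78% to 5.62% in *prpf31*-/- libraries and 4.19% to 4.35% in sibling libraries. The part of these differences in the results below was not tested. The erythroid gene *alas2* (1 and 3 counts over the 3 mutant and 3 sibling libraries) and the epidermal gene *epcam* (6 and 2 counts) were near 0 in both groups. Of the endothelial genes, 9 of the 10 genes passed the filter on low counts, and their summed level was 196, 192 and 188 CPM in *prpf31*-/- tails and 211, 210 and 196 CPM in sibling tails. These sums overlapped.

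**Figure D1:**
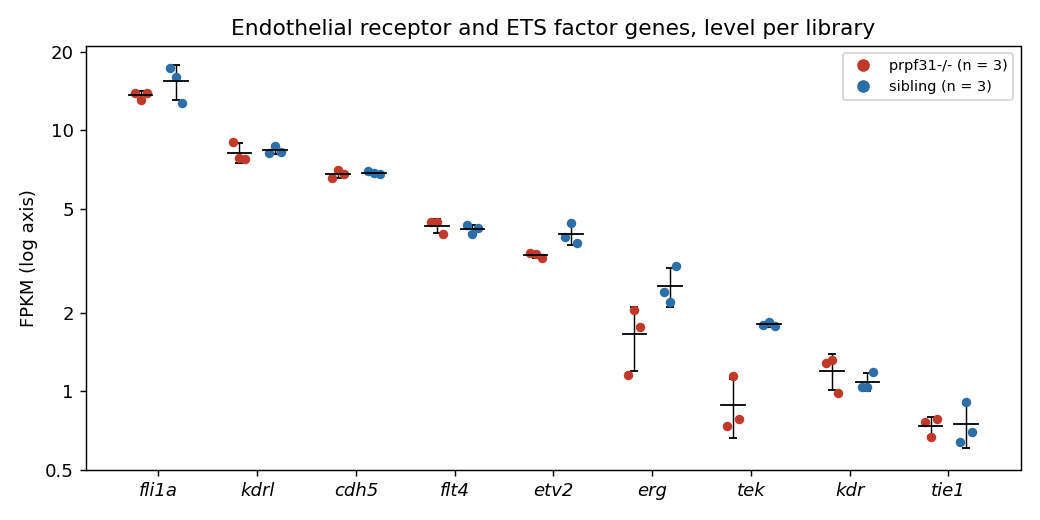
FPKM (log axis, fragments per gene length and library total) of 9 genes in the 3 *prpf31*-/- libraries and the 3 sibling libraries. Points are libraries, horizontal lines are means and error bars are SD. The 3 *prpf31*-/- points lie below the 3 sibling points for *tek*, *etv2* and *erg*, and *flt1*, listed at 0 in 4 libraries, is not drawn.

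Levels between genes can be compared only per length, for which the authors' FPKM were used. *fli1a* was the highest of the 10, with 13.6 ± 0.467 FPKM in *prpf31*-/- tails and 15.4 ± 2.37 FPKM in sibling tails (SD, n = 3 each). It was followed in both groups by *kdrl* (8.20 ± 0.714 and 8.38 ± 0.280 FPKM), *cdh5* (6.81 ± 0.224 and 6.89 ± 0.0632 FPKM) and *flt4* (4.29 ± 0.262 and 4.18 ± 0.157 FPKM), with no overlap between neighbors over the libraries of a group down to *flt4*. In *prpf31*-/- tails *etv2* (3.32 FPKM) lay below *flt4* without overlap, whereas in sibling tails the ranges of *flt4* (4.01 to 4.32 FPKM) and *etv2* (3.69 to 4.39 FPKM) overlapped. Below these, the order differed between the genotypes. In *prpf31*-/- tails the order was *erg* (1.15 to 2.04 FPKM), *kdr* (0.981 to 1.32 FPKM), *tek* (0.735 to 1.15 FPKM) and *tie1* (0.667 to 0.782 FPKM), and each neighbor overlapped the next. In sibling tails it was *erg* (2.20 to 3.02 FPKM), *tek* (1.77 to 1.85 FPKM), *kdr* (1.03 to 1.18 FPKM) and *tie1* (0.636 to 0.911 FPKM), with no overlap between neighbors. *tek* thus stood above *kdr* in every sibling library. In the *prpf31*-/- group the ranges of both genes overlapped, but within each library *tek* stood below *kdr*.

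Of the 9 tested genes, 1 was lower in *prpf31*-/- tails, which was *tek*, none was higher, and 8 did not pass the threshold of adjusted p under 0.05 with edgeR's quasi-likelihood test. Over all tested genes 4.49% were lower, 5.58% were higher and 10.1% changed in either direction. At an unadjusted p under 0.05 the count was 3 of 9, against 25.0% of all tested genes. The 3 mutant and the 3 sibling libraries did not overlap in *tek*, *etv2* and *erg*, each with the *prpf31*-/- libraries lower. This pattern held for 15.4% of all tested genes, the same with the mutants higher for 15.2%, and groups with no overlap in either direction for 30.6%. The median log2 fold change of the 9 genes was −0.035, beside −0.0048 for all tested genes.

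**Figure D2:**
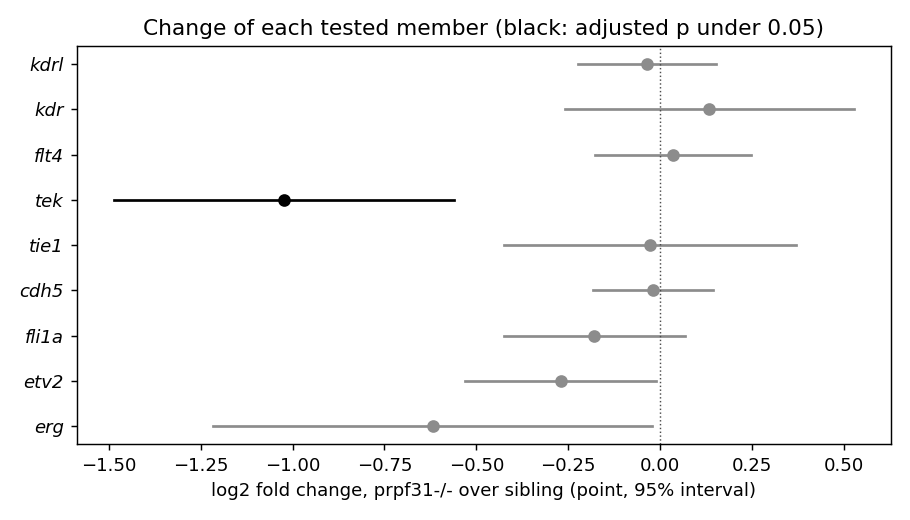
Log2 fold change of *prpf31*-/- over sibling tails for the 9 tested genes, from edgeR. Points are estimates and lines are 95% intervals, with *tek* in black as the only gene past the threshold. The interval of *tek* runs from −1.49 to −0.56, and those of *etv2* and *erg* end just under 0.

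The VEGF receptors did not pass the test in either direction. *kdrl*, a VEGF receptor of fish that is the usual pan-endothelial marker in zebrafish, was at 52.4, 45.6 and 45.2 CPM in the *prpf31*-/- libraries, against 47.9, 50.5 and 48.3 CPM in the siblings. The groups overlapped, and the log2 fold change was −0.035 (SE 0.0844, 95% interval −0.22 to 0.15, adjusted p = 0.845). A fall of *kdrl* below 0.856 times the sibling level or a rise above 1.11 times lay outside this interval. *kdr*, its paralog, had 6.94, 7.14 and 5.32 CPM in *prpf31*-/- tails and 5.63, 5.62 and 6.43 CPM in sibling tails. Its log2 fold change of 0.13 (95% interval −0.26 to 0.53, adjusted p = 0.699) was within the spread of the libraries. *flt4*, the receptor for Vegfc on veins and lymphatic precursors, had 23.4, 23.5 and 21.1 CPM in *prpf31*-/- tails and 23.0, 21.1 and 22.3 CPM in sibling tails, a log2 fold change of 0.034 (95% interval −0.18 to 0.25, adjusted p = 0.868). The directions of *kdrl* and *flt4* were not stable, as *kdrl* was at 0.0037 without mutant replicate 3 and *flt4* at −0.0034 with upper-quartile factors. The summed FPKM of the VEGF receptors was 13.7 ± 1.02 in *prpf31*-/- tails and 13.6 ± 0.107 in sibling tails (SD, n = 3 each). *kdrl* made up 59.9 ± 2.02% of that sum in mutants and 61.4 ± 1.60% in siblings, and *flt4* 31.4 ± 1.29% and 30.6 ± 1.39%, and both shares overlapped between the groups.

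*flt1*, whose product binds VEGF and limits its signal, was listed at or near 0 counts throughout. *flt1* is known from zebrafish arteries at this stage, and whether the gene model or the counting left out its reads was not tested, so these counts do not show that the gene was silent. The files gave it 1, 2 and 0 counts in the *prpf31*-/- libraries, against 0, 0 and 0 counts in the siblings, and it did not pass the filter on low counts. A count of 0 allows up to 3 counts, which is 0.129 to 0.148 CPM in mutant libraries and 0.131 to 0.135 CPM in sibling libraries (counting error only), so both groups were under this limit and no fold change is given. The gene model lies on chromosome 24 of GRCz11 from 21750810 to 21808819, is 5499 nt long and overlaps no other gene of the files. Over the 6 libraries, 13.7% of the 25431 protein-coding genes had 3 counts or fewer.

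The ligands and co-receptors of the VEGF system also gave no call. Of 9 tested genes on this list (12 listed, 11 in the files), none was higher and none lower with edgeR. Over all tested genes, 10.1% were called in either direction. An unadjusted p under 0.05 was found for 0 of the 9, beside 25.0% of all tested genes. DESeq2 and limma called none of the listed genes either. The median log2 fold change of the list was 0.012. *vegfaa*, a main ligand of the VEGF receptors, had 21.6, 16.7 and 19.8 CPM in *prpf31*-/- tails and 18.5, 18.4 and 17.0 CPM in sibling tails (log2 fold change 0.10, 95% interval −0.16 to 0.37, adjusted p = 0.646). The smallest adjusted p belonged to *vegfba* (log2 fold change 0.47, adjusted p = 0.262) and to the neuropilin gene *nrp2b* (−0.15, adjusted p = 0.351). *vegfba* was at 2.66, 2.15 and 2.53 CPM in mutants, above the 1.66, 1.66 and 1.98 CPM in siblings, although the test was not passed.

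*tek* was lower in every *prpf31*-/- library. It lies on chromosome 5 from 480119 to 496781, and its reads numbered 53, 93 and 65 counts in the *prpf31*-/- libraries against 147, 146 and 141 counts in the siblings. This is 2.61, 4.07 and 2.79 CPM in *prpf31*-/- tails and 6.41, 6.56 and 6.34 CPM in sibling tails. The sibling libraries were close together and the mutant libraries were spread, with replicate 2 the highest, yet still below every sibling. The log2 fold change was −1.02 (SE 0.208, 95% interval −1.49 to −0.56, adjusted p = 0.0133), a mutant level of 0.492 times that of siblings (95% interval 0.357 to 0.678). The call was lost without mutant replicate 3 (adjusted p = 0.0709), sibling replicate 1 (0.0541) or sibling replicate 2 (0.0510), while over the 6 fits without 1 library the log2 fold change stayed between −1.25 and −0.91. A ribosomal RNA gene on the other strand overlaps *tek* and had 0 or 1 counts in each library.

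*tie1*, the partner receptor of Tek, had 6.99, 6.13 and 7.21 CPM in *prpf31*-/- tails and 5.89, 8.36 and 6.47 CPM in sibling tails. The groups overlapped, and the log2 fold change was −0.027 (SE 0.178, 95% interval −0.42 to 0.37, adjusted p = 0.948), with the sign turned to 0.041 without mutant replicate 2 and 0.13 without sibling replicate 2. *tie1* overlaps *mpl*, which had 0 counts in 5 libraries and 2 in sibling replicate 2. The 2 receptors were also compared directly. The log2 ratio of *tek* to *tie1* counts was −1.42, −0.59 and −1.37 in *prpf31*-/- libraries, against 0.12, −0.35 and −0.030 in siblings. The ratio was lower in 3 of 3 mutant libraries, by 1.04 on average (exact permutation test, two-sided, p = 0.1, which is the lowest possible with 3 libraries against 3, and 0.3 when adjusted over the 3 member pairs compared). By FPKM, the share of *tek* in the TIE receptor sum averaged 54.1 ± 7.89% in *prpf31*-/- libraries and 70.8 ± 3.48% in sibling libraries (SD, n = 3 each), without overlap. The size of this share rests on the gene models, 3539 nt long for *tek* and 9153 nt for *tie1*.

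**Figure D3:**
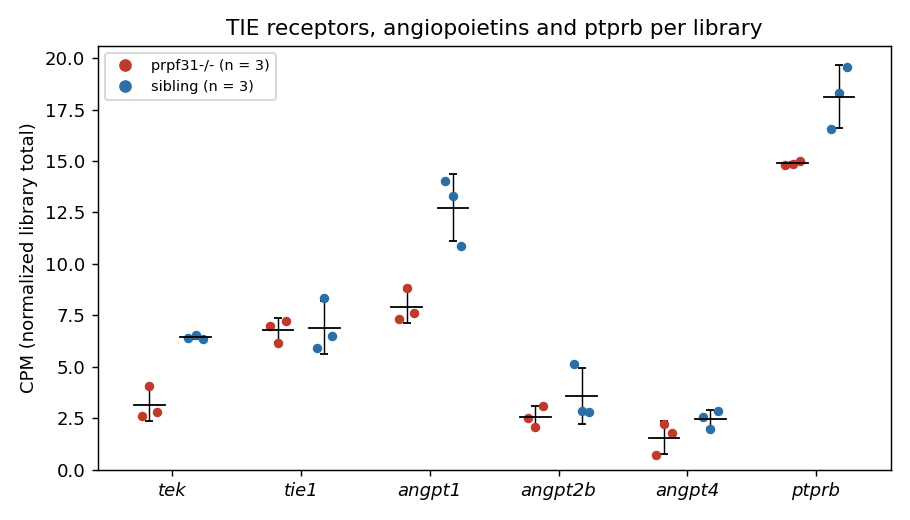
CPM of *tek*, *tie1*, 3 angiopoietin genes and *ptprb* in the 3 *prpf31*-/- libraries and the 3 sibling libraries. Points are libraries, horizontal lines are means and error bars are SD. The *prpf31*-/- libraries lie below the sibling libraries for *tek*, *angpt1* and *ptprb* and overlap them for *tie1*, *angpt2b* and *angpt4*.

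Of 5 tested genes on the list of angiopoietins and TIE partners (6 listed, 6 in the files), 1 fell and none rose. It was *angpt1*, the activating ligand of Tek, with 7.34, 8.85 and 7.60 CPM in *prpf31*-/- tails and 14.0, 13.3 and 10.9 CPM in sibling tails. The groups did not overlap, and the log2 fold change was −0.68 (SE 0.150, 95% interval −1.02 to −0.35, adjusted p = 0.0192). Its call was lost without the same libraries as that of *tek*, which are mutant replicate 3, sibling replicate 1 and sibling replicate 2 (highest adjusted p = 0.0915). These fits also called the fewest genes over all tested genes, so the shared loss is not particular to *tek* and *angpt1*. They called 600, 666 and 705 genes higher and 332, 378 and 416 lower, against 1220 and 983 with all libraries. The receptor phosphatase gene *ptprb*, whose product acts on Tek and VE-cadherin in mammals, had 14.8, 14.9 and 15.0 CPM in mutants against 16.5, 18.3 and 19.6 CPM in siblings, which did not pass (log2 fold change −0.28, adjusted p = 0.130). *angpt2b* and *angpt4* had log2 fold changes of −0.49 and −0.65 with overlapping groups (adjusted p = 0.343 and 0.334), and *svep1* −0.023 (adjusted p = 0.921). The median log2 fold change of the list was −0.49, and all 5 values were negative, as were all 6 values of the neural genes. Over all tested genes, 4.49% were called lower and 50.7% of the values were negative.

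Over the 6 libraries, the genes whose log2 CPM followed *tek* most closely were *col6a4a*, a collagen VI chain gene (Pearson r = 0.994, Spearman rho = 0.829), *mettl4* (0.994 and 0.943), *prom2* (0.992 and 0.943), *asap3* (0.991 and 1) and *aldh5a1* (0.991 and 0.943). All 5 were lower on average in *prpf31*-/- tails, with log2 fold changes from −1.31 (*aldh5a1*) to −0.33 (*prom2*), and this shared step between the groups enters each r. *col6a4a* and *aldh5a1* lie on chromosome 16, which also carries *prpf31*. For both, the effect of the genotype and that of alleles carried along with the mutation cannot be told apart. With only 6 libraries, 250 of 19306 compared genes had an r over 0.95. Among the other tested members, *erg* (r = 0.856) and *etv2* (0.848) came closest to *tek*. Both also had lower mutant libraries without overlap, so the step between the groups enters their r as well. *cdh5* (0.58) and *fli1a* (0.44) lay between, and *kdrl* (0.055), *tie1* (−0.084), *flt4* (−0.15) and *kdr* (−0.24) did not follow *tek*.

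*cdh5*, the gene of VE-cadherin, did not pass the test. It had 44.8, 47.9 and 46.5 CPM in *prpf31*-/- libraries and 47.6, 46.7 and 46.7 CPM in siblings, a log2 fold change of −0.019 (SE 0.0732, 95% interval −0.18 to 0.14, adjusted p = 0.907). Changes beyond 0.881 or 1.11 times the sibling level lay outside this interval. Of 16 tested genes of VE-cadherin partners and the endothelial junction, none rose and 2 fell, beside 4.49% lower over all tested genes. *krit1*, whose product steadies endothelial junctions and whose human ortholog is mutated in cerebral cavernous malformations, had 20.5, 20.5 and 19.1 CPM in mutant libraries against 28.3, 29.5 and 26.8 CPM in siblings (log2 fold change −0.49, adjusted p = 0.00867), and lost its call without mutant replicate 3 (adjusted p = 0.0586). *pecam1*, an adhesion molecule between endothelial cells, had 14.5, 15.7 and 15.9 CPM in mutants against 19.9, 19.8 and 20.2 CPM in siblings (log2 fold change −0.38, adjusted p = 0.0375), and lost its call whichever library was left out (adjusted p = 0.0608 to 0.119). The β-catenin gene *ctnnb1*, whose product binds the tail of VE-cadherin, was at −0.040 (95% interval −0.21 to 0.13).

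The ETS factors were measured at lower mean levels in *prpf31*-/- tails, and none passed the test. *etv2* had 12.2, 12.1 and 11.7 CPM in *prpf31*-/- libraries and 14.2, 15.8 and 13.4 CPM in siblings. The groups did not overlap, and the log2 fold change was −0.27 (SE 0.117, 95% interval −0.53 to −0.010, unadjusted p = 0.0433 and adjusted p = 0.183 from edgeR). *erg*, which in mammals maintains the endothelial program and the junctions, had 1.48, 2.63 and 2.27 CPM in *prpf31*-/- libraries and 3.10, 2.83 and 3.91 CPM in siblings. Its groups did not overlap either, with a log2 fold change of −0.62 (SE 0.268, 95% interval −1.22 to −0.021, unadjusted p = 0.0437 and adjusted p = 0.184 from edgeR). *erg* had 30, 60 and 53 counts in the mutant libraries and 71, 63 and 87 counts in the sibling libraries. *fli1a*, which is also expressed in neural crest and some blood cells, had 45.3, 42.8 and 45.5 CPM in *prpf31*-/- libraries and 57.1, 52.2 and 41.9 CPM in siblings. Sibling replicate 3 lay below all 3 mutants, so the groups overlapped (log2 fold change −0.18, 95% interval −0.43 to 0.068, adjusted p = 0.361). Over the 6 fits without 1 library, *fli1a* ran from −0.30 (without sibling replicate 3, adjusted p = 0.0819 from edgeR) to −0.080 (without sibling replicate 1). In the same fits *etv2* ran from −0.33 to −0.20 and *erg* from −0.80 to −0.42, and none of the 3 genes was called. The summed FPKM of the ETS factors was 18.6 ± 0.242 in *prpf31*-/- tails and 21.9 ± 2.19 in sibling tails (SD, n = 3 each).

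*etv2* lies on chromosome 16 from 42007090 to 42014272, 9.92 Mb from *prpf31* on the same chromosome. Of 891 tested genes of this chromosome, 23.6% were called in either direction, against 9.5% of the genes elsewhere. The effect of the genotype and that of alleles carried along with the *prpf31* mutation cannot be told apart for *etv2*. The same limit holds for the other named genes of this chromosome, which include *fli1b*, *caspa*, *pycard*, *vegfaa* and *ctnnb1*. The neighbor of *etv2*, *fli1b*, is a paralog of *fli1a* that starts 3768 nt away and is transcribed in the opposite direction. It had 8.22, 7.58 and 7.38 CPM in *prpf31*-/- libraries against 10.7, 8.63 and 10.8 CPM in siblings. The groups did not overlap, and the test was not passed (log2 fold change −0.38, adjusted p = 0.143). On the other side of *etv2*, *caspa* was at 0.24 on the log2 scale (adjusted p = 0.229) and *pycard* at 0.15 (adjusted p = 0.398). The log2 ratio of *etv2* to *fli1a* differed by −0.10 between mutants and siblings (−1.89 ± 0.0729 and −1.79 ± 0.192, SD, n = 3 each, two-sided exact permutation test, p = 0.5). For the ratio of *kdr* to *kdrl* the difference was 0.16 (−2.89 ± 0.207 and −3.06 ± 0.132, SD, n = 3 each, two-sided exact permutation test, p = 0.4). Adjusted over the 3 member pairs compared, both p-values of this permutation test were 0.5. With 3 libraries against 3 its lowest possible p is 0.1, so neither ratio could have passed 0.05.

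Other genes of the vessel network were read from 6 lists that leave the members out. Of their 75 tested genes, 7 fell, 2 rose and 66 did not pass, so 9 of 75 were called beside 10.1% of all tested genes. Over the fits without 1 library 2 to 8 were called, with 2 without mutant replicate 3, 4 without sibling replicate 1 or 2, and 5 without mutant replicate 2, and the replicate block called 4. Their median log2 fold change was −0.15, and 53 of the 75 values, or 70.7%, were negative, against 50.7% of all tested genes. Some marker lists of other cells leaned the same way, with 6 of 6 neural, 4 of 5 myeloid and 3 of 4 erythroid values negative. For muscle, epidermal and mural genes these were 3 of 6, 2 of 5 and 3 of 7. The lean was thus not particular to the vessel lists. Of 17 other vessel transcription factors, *foxc1a*, a forkhead factor of vascular and somite mesoderm, fell to 24.1 ± 2.14 CPM in mutants against 37.6 ± 3.62 CPM in siblings (SD, n = 3 each, log2 fold change −0.65, adjusted p = 0.00456 from edgeR). Its call held in all 6 fits without 1 library. *mef2cb*, which also serves muscle, rose to 57.1 ± 3.18 CPM in mutants against 42.3 ± 1.52 CPM in siblings (SD, n = 3 each, log2 fold change 0.43, adjusted p = 0.00758 from edgeR), and lost its call without mutant replicate 3 (adjusted p = 0.0547).

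Of 12 genes of arteries, veins and lymph vessels, 1 fell and 1 rose, beside 4.49% lower and 5.58% higher over all tested genes. *mrc1a*, a receptor gene of veins and lymphatic endothelium, was at 42.6 ± 2.42 CPM in mutants and 57.9 ± 3.81 CPM in siblings (SD, n = 3 each, log2 fold change −0.44, adjusted p = 0.00967 from edgeR), with a call in all 6 fits without 1 library. The arterial Notch ligand gene *dll4* was at 15.9 ± 0.956 CPM in mutants and 11.7 ± 0.816 CPM in siblings (SD, n = 3 each, log2 fold change 0.45, adjusted p = 0.0379 from edgeR), and its call was lost whichever library was left out. Of 16 other endothelial surface genes, 2 fell and none rose. They were the paralogs *aplnra* (log2 fold change −0.34, adjusted p = 0.0346) and *aplnrb* (−0.44, adjusted p = 0.0383), which encode receptors for apelin on sprouting and venous endothelium. The *aplnra* call was lost in 5 of the 6 fits without 1 library and held only without mutant replicate 1 (adjusted p = 0.0376). The *aplnrb* call was lost in 4 of them, those without mutant replicate 2, mutant replicate 3, sibling replicate 1 or sibling replicate 2. Of 7 tested genes of the vessel wall and mural cells, none was called with edgeR in either direction. An unadjusted p under 0.05 was found for 4 of the 7, beside 25.0% of all tested genes. DESeq2 called 1 of them higher (*notch3*), and limma with the FPKM filter another (*tagln*). The smallest adjusted p in this list belonged to *notch3* (log2 fold change 0.28, adjusted p = 0.0964) and *tbx18* (−0.50, adjusted p = 0.118).

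**Figure D4:**
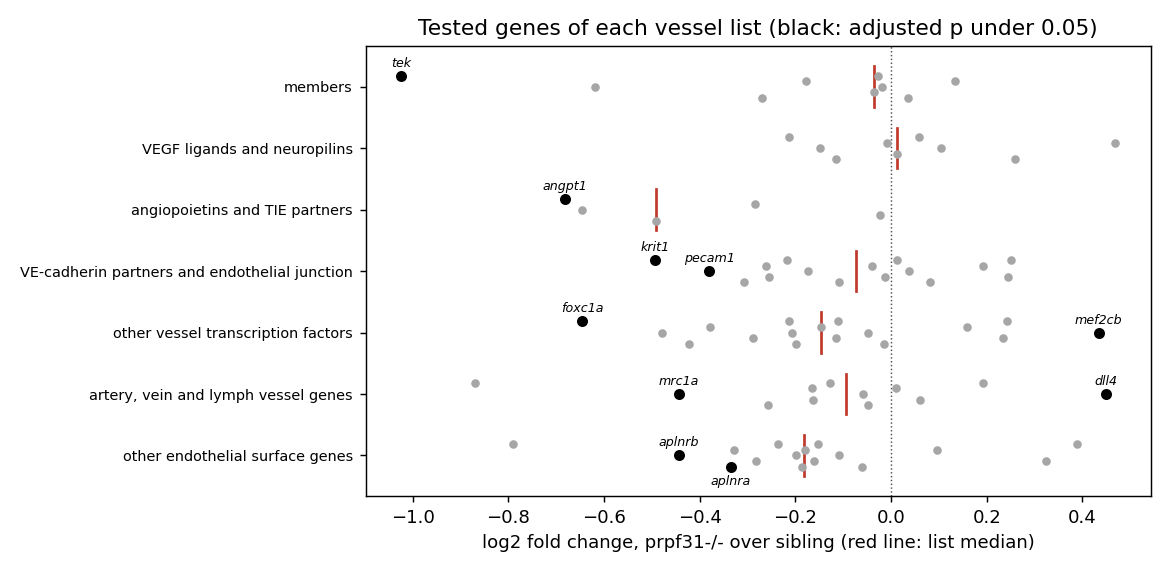
Log2 fold change of *prpf31*-/- over sibling tails for each tested gene of the members and of the 6 vessel lists, 1 point per gene, with red lines at the median of each list. Black points with names passed adjusted p under 0.05 in edgeR. The median of the VEGF ligands and neuropilins lies at 0.012 and that of the angiopoietins and TIE partners at −0.49.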

How the data were processed

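RNA-seq was performed on dissected tails at 36 hpf in 3 *prpf31*-/- and 3 sibling libraries. The authors deposited raw counts per gene and FPKM per gene. The submitters' processing notes name CASAVA 1.8, HISAT2 2.0.5, GRCz11 and featureCounts 1.5.0-p3. The annotation release is not given in the sources used here, and the kit does not mark strand. In the deposited FPKM, counts were scaled for length and for a total of 0.935 to 1.05 times each library's summed counts. Replicates differed beyond sampling noise (chi-square per degree of freedom of 7.24 to 20.8). No label says that they came from separate clutches, so p-values measure the spread between these libraries only.

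The quasi-likelihood test of edgeR 4.0.16 (R 4.3.3) compared mutants with siblings (filterByExpr, TMM, p adjusted by Benjamini-Hochberg over 21876 genes, threshold 0.05, common biological coefficient of variation 15.5%). SE and 95% intervals came from the F statistic. The procedure was tested on simulated data. Pairs of genes were compared by exact permutation with scipy 1.17.1, and figures were drawn with matplotlib 3.10.9. Alternatives were RLE and upper-quartile factors, DESeq2 1.42.0, no filter, a replicate block and a minimum of 50 counts in 3 libraries. In others, limma 3.58.1 was run on log2(FPKM + 1) and log2(FPKM + 0.1) with FPKM of at least 1 in 3 libraries. It was run without a filter on log2(FPKM + 1) only. Further alternatives left out each library in turn and, chosen after seeing the data, chromosome 16.

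The members and gene lists were chosen with earlier results of these data known. Named genes are all members, the called genes of each vessel list, otherwise up to 2 of a list with the smallest adjusted p, *prpf31*, and the 5 genes most like *tek* with a mean of at least 1 CPM. *vegfaa*, *ctnnb1*, *svep1*, *ptprb*, *angpt2b*, *angpt4*, *fli1b*, *caspa*, *pycard*, *mpl*, *tagln*, *alas2* and *epcam* were named after their values were seen. For the other marker lists reported here, counts called higher and lower were 0 and 2 of 4 tested erythroid genes (*hbae3*, *hbbe1.1*), 0 and 1 of 5 myeloid genes (*mpx*), and 0 and 0 of 6 muscle, 6 neural and 5 epidermal genes (unadjusted p under 0.05 in 3, 1 and 2, and 1 epidermal gene called higher by DESeq2). Over all tested genes, 5.58% were called higher, 4.49% were called lower and 25.0% had an unadjusted p under 0.05.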

Additional observations from a re-analysis of the deposited data

How the results depend on the processing

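No member was called higher in any of the 16 alternatives, and *tek* was called lower in 13 of them. Without 1 library, 0 to 1 members were called lower. Its log2 fold change ran from −1.06 to −0.58 (adjusted p = 0.00102 to 0.0473) over the 10 alternatives that keep all libraries, with the smallest size from limma on log2(FPKM + 1). Over all genes, 1220 were higher and 983 lower. Without 1 library 600 to 1215 were higher and 332 to 990 lower, and limma on log2(FPKM + 1) without a filter called 537 lower. With the replicate number as a block 698 were higher and 455 lower. The labels do not say that a number marks a shared clutch, and same-numbered libraries did not deviate together (r of −0.14, −0.20 and −0.11). With this block *tek* was still called (adjusted p = 0.0336), while the calls of *angpt1* (0.0506), *pecam1* (0.121), *dll4* (0.118), *aplnra* (0.113), *aplnrb* (0.0786) and *mpx* (0.0679) were lost. Calls were also lost for *pecam1* and *dll4* under all 3 limma settings, for *pecam1* without a filter, for *dll4* with upper-quartile factors, and for *aplnrb*, *mpx* and *hbae3* under limma without a filter. The log2 fold change of *tie1* without 1 library ran from −0.13 to 0.13. Signs turned for *kdrl* (0.0037 without mutant replicate 3), *flt4* (−0.0034 with upper-quartile factors) and *tie1* (0.041 without mutant replicate 2 and 0.13 without sibling replicate 2), none of them called. The cause of these changes was not tested. *tek* and *erg* had 53 to 147 and 30 to 87 counts per library, and *flt1* was under the level that a count of 0 allows. *tie1* did not pass the FPKM filter, which leaves it out of 2 alternatives, and *etv2* has no value without chromosome 16.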
